A study of Mus musculus with 2 samples.

Results

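The genes described here encode SPEN and subunits of the NCoR-HDAC3 corepressor, a pathway through which Xist RNA silences genes. They are Spen, Ncor1, Hdac3, Tbl1x, Tbl1xr1 and Gps2, chosen by name, and all 6 were found among the 22556 genes of the deposited count table. The series holds 1 group of 2 mRNA-seq replicates of untreated mouse embryonic stem cells (mESCs) at 0 h, iXist-ChrX-Dom, a female line of the strain Dom/129S x Cast. In both replicates the endogenous Xist promoter of the Dom/129S allele was replaced by a TetOn promoter, which drives Xist only when doxycycline is given, and none was given. The cells had grown on inactivated mouse fibroblasts that were removed by pre-plating. Both libraries came from the same line, and the labels do not say whether they came from separate cultures, so the spread between them may be technical. With 1 group there was no treatment to compare, and the question was how strongly, and how reproducibly, each gene of this pathway was expressed in cells in which Xist had not yet been induced.

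SPEN is a large RNA-binding protein that binds the A-repeat of Xist RNA and, through its C-terminal SPOC domain, recruits the corepressor NCoR. NCoR is a scaffold that binds and activates the histone deacetylase HDAC3, whose activity also needs an inositol phosphate. The WD-repeat proteins TBL1X and TBLR1 (the product of Tbl1xr1) and the small protein GPS2 complete the core of the complex, which also serves unliganded nuclear receptors and other repressors in many tissues.

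The count totals of replicates 1 and 2 were 23716499 and 20275749, which leaves a floor of 0.126 and 0.148 counts per 1000000 (CPM) for a gene without counts. The ES cell identity given in the titles was matched by its markers, since all 8 genes of the ES list had at least 1 TPM (transcripts per 1000000), with a median of 289 TPM. One label calls the cells "mESC to NPC", but of the neural precursor list only 1 of 5 genes, Nes, reached 1 TPM, while Sox1 and Olig2 had no counts. Of the feeder fibroblast list, 1 of 8 genes reached 1 TPM, and its summed level was 3.61 TPM in replicate 1 and 0.96 TPM in replicate 2. Thy1 made up most of that difference, with 32 counts in replicate 1 and 2 in replicate 2, while Pdgfra had 31 and 17 counts, Pdgfrb 12 and 4, Col1a2 9 and 4, and Col1a1 4 and 5. Col3a1, Postn and S100a4 had at most 1 count in either library. The libraries differed unevenly over the ES list. The log2 ratio of replicate 2 to replicate 1 in CPM was -3.06 for Dppa5a, -2.76 for Pou5f1, which encodes the pluripotency factor OCT4, and -1.24 for Esrrb, while the other 5 genes lay between -0.45 and 0.05. The part of such library differences in the results on the corepressor genes was not tested.

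Levels between genes were compared as TPM, computed with the length of all annotated exons of a gene (exonic length). The scaffold gene Ncor1 was the most highly expressed of the 6 genes at 172 ± 14.9 TPM (SD, n = 2 here and for all values of this kind). It was followed by Tbl1x at 115 ± 8.87 TPM, Tbl1xr1 at 94.3 ± 12.0 TPM, Hdac3 at 28.2 ± 18.5 TPM, Gps2 at 11.8 ± 7.08 TPM and Spen at 6.85 ± 2.08 TPM. The gene for the RNA-binding protein that bridges Xist to the complex thus had the lowest mRNA level of the 6, and its mean lay 25.1-fold below that of the scaffold gene with the exonic length and 11.5-fold below with the deposited length, which includes introns. Among the 5 pairs of neighbours in this order, the 2 libraries of one gene did not overlap those of the next for Ncor1 and Tbl1x (1.49-fold between means), for Tbl1x and Tbl1xr1 (1.22-fold) and for Tbl1xr1 and Hdac3 (3.35-fold). With the libraries scaled by TMM factors, Tbl1x and Tbl1xr1 did overlap, at 115 ± 5.56 and 95.4 ± 23.9 TPM. Hdac3 and Gps2 overlapped, as did Gps2 and Spen, although within each library Hdac3 stood above Gps2 and Gps2 above Spen. With 2 values against 2, an exact permutation test cannot give a two-sided p under 0.333, so none of these differences was tested over libraries. In bulk RNA, a lower level in every cell and expression in fewer cells cannot be told apart.

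This order depended on the gene length used, above all for Tbl1x and Gps2. The authors had counted fragments over the whole transcribed span of each gene, introns included, and the deposited length is the length of that span. Any intronic fragments are thus in the counts while the exonic length leaves introns out, which can raise the TPM of genes with long introns. Ncor1, Tbl1x and Tbl1xr1 have spans of 140.9, 149.0 and 139.9 kb, against 70.7 kb for Spen, 18.0 kb for Hdac3 and 2.4 kb for Gps2. How much intronic fragments raised each level was not tested. With the deposited length the order became Ncor1, Gps2, Tbl1xr1, Tbl1x, Hdac3 and Spen, and Gps2, whose 2401-base span is 58.6% exonic against 3.5% to 17.4% for the other 5 genes, stood at 35.7 ± 20.2 TPM. For Tbl1x, 2303 of its 5234 exonic bases (44.0%) lie inside the span that was counted. With exonic bases restricted to that span, Tbl1x reached 236 ± 17.7 TPM and stood above Ncor1 at 155 ± 13.7 TPM. Among all genes with an exonic length, the median share of exonic bases inside the counted span was 99.6%, and 8.69% of them had less than 50% inside. Spen was the lowest of the 6 genes under every length tried, and Ncor1 the highest under every length except this restricted one. With no length at all, in CPM, the order was Ncor1, Tbl1xr1, Tbl1x, Spen, Hdac3 and Gps2.

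**Figure D1:**
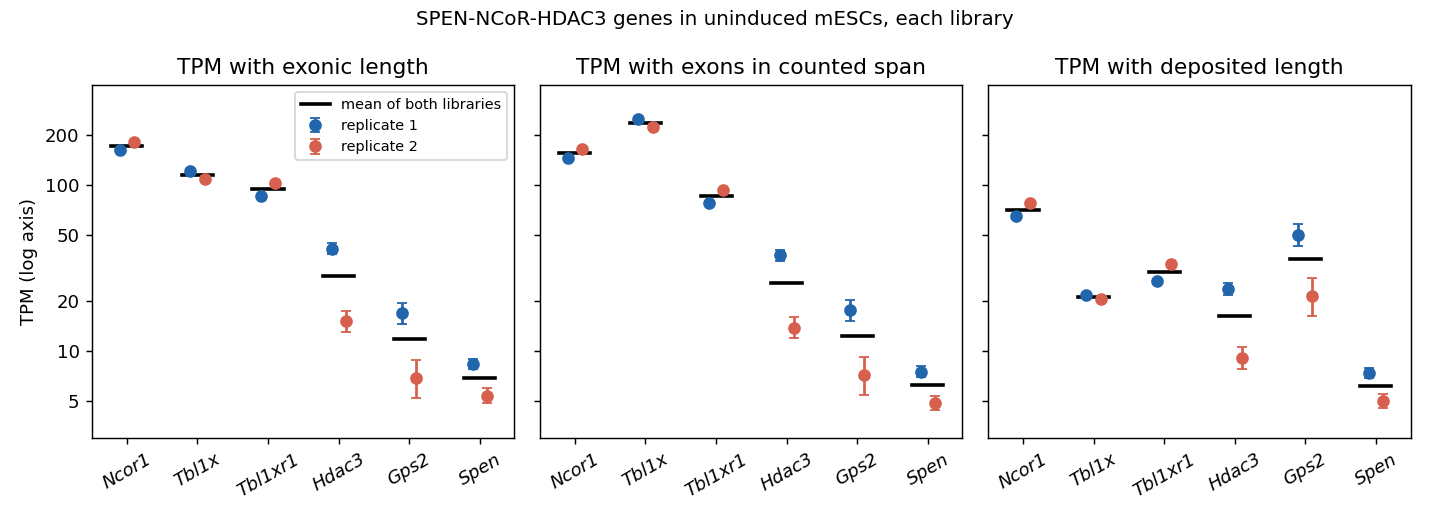
TPM of the 6 corepressor genes (log axis) in replicate 1 (blue) and replicate 2 (red), with bars for the exact 95% counting interval and a line for the mean, computed with the exonic length, with the exonic bases inside the counted span and with the deposited length. Spen is lowest in all 3 panels, Tbl1x moves from 115 to 236 and 21.0 TPM, and Hdac3 and Gps2 differ most between the libraries.

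Spen (chr4:141467889-141538597, mm10, minus strand) encodes the link between Xist RNA and the corepressor, and its 12299-base transcript in 16 exons is the longest of the 6. It had 769 counts in replicate 1 and 400 in replicate 2, or 8.32 TPM (95% exact Poisson interval 7.74 to 8.93) and 5.38 TPM (4.87 to 5.93). The counting intervals did not overlap, so the libraries differed by more than counting error, although the coefficient of variation of 30.3% was below those of Hdac3 and Gps2. Among the 12248 genes that reached 1 TPM, Spen lay at the 32.1 percentile. No 50-base word of its transcript was shared with another gene. Its span overlaps Zbtb17 on the opposite strand by 49 bases, and the counting was strand-specific.

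Ncor1 (chr11:62316425-62457332, minus strand) encodes the NCoR scaffold that holds HDAC3, the TBL1 proteins and GPS2 together. It had 13543 counts in replicate 1 and 12309 in replicate 2, or 161 and 182 TPM. These levels put it at the 89.2 percentile of expressed genes, with a coefficient of variation of 8.64% with the totals. With TMM factors Ncor1 stood at 173 ± 36.5 TPM, beside 6.75 ± 1.22 TPM for Spen, so the spread depended on the scaling. Of the 50-base words of its transcript, 1.02% also occur in Gm6743, so a small share of its fragments could have been assigned elsewhere. Within the first library its level was 19.4 times that of Spen (95% exact binomial interval 18.0 to 20.9), and within the second 33.9 times (30.7 to 37.5). With the deposited length these ratios were 8.84 (8.22 to 9.52) and 15.4 (14.0 to 17.1).

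Tbl1x (chrX:77511226-77660265, plus strand) and Tbl1xr1 (chr3:22076651-22216594, plus strand) encode the exchangeable WD-repeat subunits TBL1X and TBLR1, which bind histone tails and serve in the release of the corepressor. Tbl1x had 4770 and 3439 counts, or 121 TPM in replicate 1 and 109 TPM in replicate 2. Tbl1xr1 had 5487 and 5282 counts, or 85.8 and 103 TPM. With the library totals Tbl1x was thus higher in the first library, which did not hold with TMM factors, and Tbl1xr1 in the second. The coefficients of variation were 7.72% and 12.7% with the totals. With TMM factors the levels were 115 ± 5.56 TPM for Tbl1x and 95.4 ± 23.9 TPM for Tbl1xr1. Because the genes are close relatives, their transcripts were compared to see whether fragments could have been assigned to the wrong copy. The longest run of identical bases was 20, and no 50-base word was shared between them. Of the words of the Tbl1xr1 transcript, 0.22% occur in other genes, among them Neat1 and Rbm5. The most alike stretch as long as a sequencing read, 81 bases, had 70 identical positions and 11 differences (86.4% identity). It is coding in both genes. In Tbl1x it spans exons 12 and 13 of 16, at chrX:77652773-77652838 and chrX:77653214-77653228. In Tbl1xr1 it spans exons 13 and 14 of 17, at chr3:22200599-22200664 and chr3:22203097-22203111. The stretches are printed 5′ to 3′ from GRCm38, the assembly of mm10, with the bases that differ in capitals, to show how far apart these copies are over the length of a read.
Tbl1x: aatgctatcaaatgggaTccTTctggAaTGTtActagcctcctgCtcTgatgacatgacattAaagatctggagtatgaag
Tbl1xr1: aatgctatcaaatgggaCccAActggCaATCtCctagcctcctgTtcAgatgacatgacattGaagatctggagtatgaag

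The ratio of the Tbl1xr1 level to the Tbl1x level was below 1 in each library with the exonic length, at 0.708 in replicate 1 (95% exact binomial interval 0.681 to 0.736) and 0.945 in replicate 2 (0.905 to 0.987). The mean log2 ratio was -0.29 ± 0.29, so the distance from equality was about the spread between the libraries. Which gene was higher depended on the length. The mean log2 ratio was 0.50 with the deposited length, where Tbl1xr1 was above Tbl1x in each library, and -1.47 with the exonic bases inside the counted span, where it was below in each. Both genes reached at least 20.4 TPM in each library under every one of these lengths.

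Hdac3 (chr18:37936970-37954988, minus strand) encodes the catalytic subunit, the deacetylase that removes acetyl groups from histones near silenced promoters. It had 630 counts in replicate 1 and 185 in replicate 2, or 41.2 TPM (38.1 to 44.6) and 15.1 TPM (13.0 to 17.4). The level in the second library was lower by 2.91-fold in CPM, the largest replicate difference of the 6 genes, and the coefficient of variation was 65.8%. Its mean lay at the 58.4 percentile of expressed genes. The ratio of scaffold to enzyme therefore moved with the library, from 3.91 Ncor1 to 1 Hdac3 in replicate 1 (3.61 to 4.24) to 12.1 in replicate 2 (10.5 to 14.1). The mean log2 ratio of 2.78 ± 1.15 exceeded the spread, and Ncor1 was above Hdac3 in each library under every length tried. No 50-base word of the Hdac3 transcript was found in another gene.

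Gps2 (chr11:69914191-69916591, plus strand) encodes the small subunit that binds NCoR and the TBL1 proteins, and also acts outside this complex as an inhibitor of ubiquitin conjugation in inflammatory signalling. It is the shortest of the 6 genes, with a 1311-base transcript in 11 exons, and had the fewest counts, 178 in replicate 1 and 58 in replicate 2. These gave 16.8 TPM (14.4 to 19.5) and 6.82 TPM (5.18 to 8.82), a coefficient of variation of 59.9%. Hdac3 and Gps2 were both low in replicate 2, and their ratio was alike in the libraries, 2.45 (2.07 to 2.91) and 2.21 (1.64 to 3.02), with overlapping intervals. With the deposited length the ratio was alike in the libraries too but below 1, at 0.472 (0.399 to 0.560) and 0.425 (0.315 to 0.581), so which gene was higher depended on the length. Of the 50-base words of the Gps2 transcript, 3.57% also occur in Gm5221.

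The counts of each gene were next compared between the libraries with a two-sided exact binomial test against the ratio of the totals, adjusted by Benjamini-Hochberg over the 14536 genes with at least 10 counts in all. This test compares these libraries and not conditions. All 6 corepressor genes passed it, but so did 60.8% of the genes tested. Higher in replicate 2 were 2 of the 6, Ncor1 and Tbl1xr1, where 15.1% of the tested genes were higher, and 4 of the 6 were lower, where 45.7% of the tested genes were lower. The log2 ratio of replicate 2 to replicate 1 in CPM was -1.54 for Hdac3 (exact test, adjusted p = 2.59e-42), -1.38 for Gps2 (5.95e-11), -0.72 for Spen (1.21e-15), -0.25 for Tbl1x (1.16e-13), 0.09 for Ncor1 (2.84e-06) and 0.17 for Tbl1xr1 (3.16e-09). The median over the 6 was -0.48, against -0.31 over the genes tested. By the size of the difference, Hdac3 stood at the 97.5 percentile and Gps2 at the 96.1 percentile of the 9736 genes that had 50 or more counts in both libraries, whereas Ncor1 stood at the 15.4 percentile. The totals place most calls on one side. Of the genes called, 24.9% were higher in replicate 2 with the totals and 49.9% with TMM factors, which shift every log2 ratio by 0.26. With TMM factors 57.7% of the genes were called and 5 of the 6 corepressor genes. Tbl1x was then at a log2 ratio of 0.01 (exact test, adjusted p = 0.814), and the directions of the other 5 genes were as before.

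The replicate difference followed the base composition of the transcripts. Across the 9240 of these genes that are autosomal, the difference had a Spearman's rho of -0.66 with GC content, as a description across genes that share the same 2 libraries. The median log2 ratio was 0.18 in the 2310 genes with the lowest GC content and -0.65 in the 2310 genes with the highest. The corepressor genes cover much of this range, with a GC content of 41.9% for Tbl1xr1, 46.0% for Tbl1x, 48.5% for Ncor1, 50.2% for Hdac3, 56.6% for Gps2 and 57.6% for Spen. After the trend with GC content was subtracted, Spen was at 0.05 (exact test, adjusted p = 0.706) and Tbl1xr1 at 0.03 (adjusted p = 0.452). The difference of Gps2 shrank to -0.64 (exact test, adjusted p = 0.00827), that of Hdac3 to -1.11 (adjusted p = 2.30e-21) and that of Tbl1x to -0.11 (adjusted p = 0.00171), while that of Ncor1 grew to 0.40 (adjusted p = 1.39e-106). In that fit the median over the 6 genes was -0.04, and 4 of the 6 were called, beside 44.5% of all genes tested. Adding transcript length to the trend left the same 4 genes called, beside 44.0% of all genes, with a median over the 6 of -0.12. Hdac3 was then at -1.05, Gps2 at -0.51 (exact test, adjusted p = 0.0407), Ncor1 at 0.30 and Tbl1x at -0.18. Hdac3 was therefore the gene of the 6 whose counts lay farthest from the trend, with a transcript of intermediate GC content. What made the libraries differ was not tested.

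**Figure D2:**
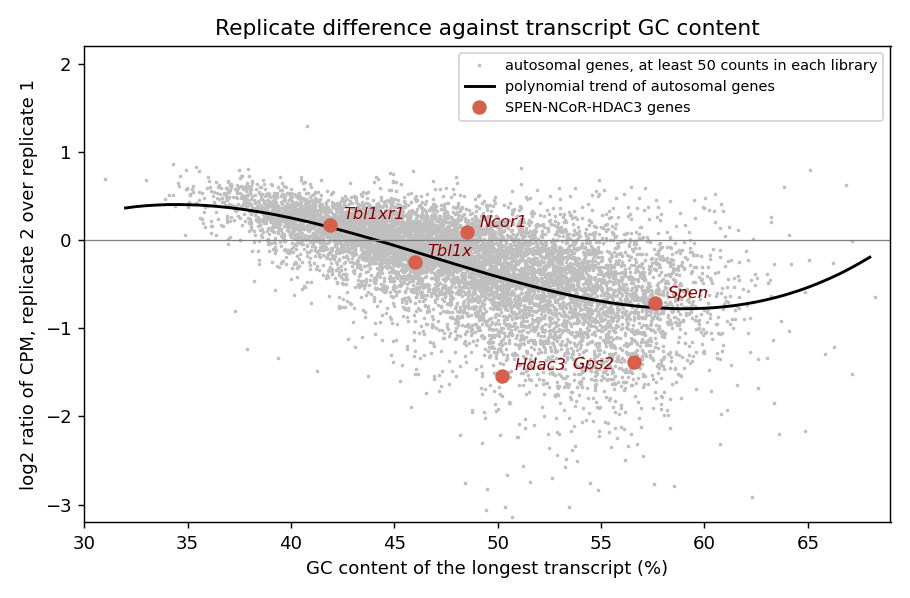
Log2 ratio of CPM, replicate 2 over replicate 1, against the GC content of the longest transcript, for autosomal genes that had 50 or more counts in both libraries (grey), with their polynomial trend (line) and the 6 corepressor genes (red). Spen and Tbl1xr1 lie on the trend, Ncor1 lies 0.40 above it, and Hdac3 lies 1.11 and Gps2 0.64 below it.

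Hdac3 and Spen were then set beside their closest relatives. Among the class I deacetylases, Hdac3 supplied 8.35% of the summed TPM in replicate 1 and 3.52% in replicate 2. Hdac2, which encodes a deacetylase of the Sin3, NuRD and CoREST complexes, supplied 68.8% and 73.0%, Hdac8 supplied 14.0% and 17.4%, and Hdac1 supplied 8.77% and 6.02%. The place of Hdac8 above Hdac1 and Hdac3 held with the exonic length and not with the deposited length, where its share was 0.99% and 1.24%. Hdac1 and Hdac3 did not separate clearly, since the ratio of Hdac1 to Hdac3 was 1.05 in replicate 1 (0.941 to 1.17) and 1.71 in replicate 2 (1.42 to 2.06), and with the deposited length 0.716 and 1.16. In the family of SPEN-like proteins, which pair RNA-binding domains with a SPOC domain, Spen supplied 9.44% and 4.14% of the summed TPM. Rbm15, which encodes an adaptor of the RNA m6A methyltransferase, supplied 83.4% and 90.7%, and Rbm15b supplied 7.16% and 5.20%. Because 46.3% of the exonic bases of Rbm15b lie inside its counted span, its share was also computed on those bases alone, and was then 11.4% and 8.26%, above that of Spen at 6.96% and 3.05%. With the deposited length Spen supplied 2.43% and 1.08%, and Rbm15b 22.9% and 16.8%. The level of Rbm15 was 73.5 TPM in replicate 1 and 118 TPM in replicate 2, opposite in direction to Spen as scaled by the totals, and it was also higher in replicate 2 with TMM factors.

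**Figure D3:**
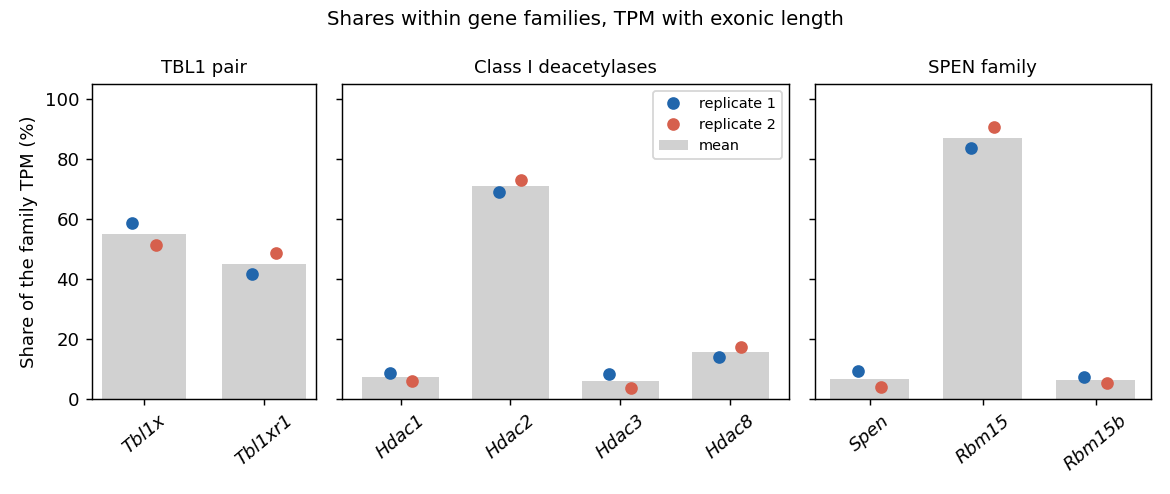
Share of the summed TPM (%, exonic length) of each gene within 3 gene families, in replicate 1 (blue) and replicate 2 (red), with the mean as a grey bar. Tbl1x holds 58.6% and 51.4% of the TBL1 pair, Hdac3 holds 8.35% and 3.52% of class I deacetylase mRNA, and Rbm15 exceeds Spen in both libraries.

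The wider pathway was described by lists of genes that act with, beside or against the corepressor. In all, 54 of 63 genes of 8 lists reached a mean of 1 TPM, beside 12248 of the 22556 genes of the table. The median of the 6 corepressor genes was 61.2 TPM, against 1.85 TPM over all genes, and with the deposited length 25.5 TPM against 1.35 TPM. All genes include 4765 without a count, and the median of the 12248 genes that reached 1 TPM was 18.45 TPM with the exonic length. By the library totals, the counts of list genes called between the libraries stand beside 15.1% of all tested genes higher and 45.7% lower in replicate 2. With TMM factors they stand beside 4187 of the 14536 tested genes higher and 4203 lower. Medians, counts of genes that reached a level and places within a list use the exonic length. With the deposited length the list medians were 34.1 TPM for the SPEN relatives and partners, 3.29 TPM for the deacetylases, 15.5 TPM for the other scaffolds, 16.6 TPM for the coactivators and 239 TPM for the Xist list, and 47 list genes reached 1 TPM.

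All 4 of the other genes listed for the NCoR complex reached 1 TPM, with a median of 9.44 TPM. Zbtb33, which encodes the DNA-binding repressor Kaiso that recruits NCoR, was the highest at 28.7 and 35.1 TPM in replicates 1 and 2. Siah2, encoding a ubiquitin ligase that targets NCoR for degradation, had 12.7 and 9.03 TPM. Coro2a, encoding an actin-binding subunit of the complex, was the lowest with 47 and 41 counts, a mean of 1.44 ± 0.083 TPM. Between the libraries 1 of the 4 was higher and 2 were lower in replicate 2, and with TMM factors 1 was higher and 1 lower. Of the SPEN relatives and partners 6 of 7 reached 1 TPM (median 16.5 TPM), 3 of 6 tested were higher in replicate 2 and 2 were lower, and with TMM factors 4 were higher and 2 lower. Ctbp2, encoding a corepressor that SPEN can recruit, had 190 and 245 TPM and led with the exonic length, whereas Rbm15 led with the deposited length. Rbpj, encoding the DNA-binding factor of Notch signalling that SPEN represses with, had 104 and 136 TPM. Msx2, a homeobox gene whose product was an early known partner of SPEN, had 3 and 5 counts.

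Of the other class I and class IIa deacetylases 6 of 7 reached 1 TPM (median 19.2 TPM), with 1 higher and 5 lower in replicate 2 by the library totals, but 2 higher and 3 lower with TMM factors. Hdac2 was highest at 340 and 312 TPM, and Hdac8, a class I enzyme with cohesin among its substrates, followed at 69.3 and 74.5 TPM. The level of Hdac8 rests on the length used, since its mean was 71.9 TPM with the exonic length and 3.29 TPM with the deposited length. Hdac7, a class IIa gene known from endothelium and thymocytes, was lowest at 0.75 and 0.17 TPM. The class IIa proteins have little activity of their own and bind NCoR-HDAC3. The inositol phosphate kinases make the cofactors of the HDAC3 complex. Of these, 4 of 5 reached 1 TPM (median 4.32 TPM), and all 5 were lower in replicate 2 with the library totals but 1 was higher and 2 lower with TMM factors. Ipmk, which encodes inositol polyphosphate multikinase, had 68.0 and 64.9 TPM, Itpk1 had 54.3 and 33.4 TPM (mean 4.86 TPM by the deposited length), and Itpkb, an inositol trisphosphate kinase best known in lymphocytes, was lowest at 1.00 and 0.50 TPM.

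The factors that bring NCoR to DNA were mostly low. Of 16 nuclear receptors and repressors 10 reached 1 TPM and 1 reached 5 TPM, and the median was 1.13 TPM, while with the deposited length 5 reached 1 TPM and the median was 0.58 TPM. That 1 gene was Nr1d2, encoding the haem-binding receptor REV-ERBβ, at 91.2 and 117 TPM. Rarb, encoding a retinoic acid receptor, came next at 2.90 and 3.56 TPM with the exonic length, but its mean was 0.088 TPM with the deposited length, below Nr1h2 at 4.08 TPM, Rxrb at 2.37 TPM and Thra at 1.92 TPM. Nr1h3, encoding the oxysterol receptor LXRα, had 4 counts in replicate 1 and none in replicate 2. Between the libraries 1 of 14 tested was higher in replicate 2 and 6 were lower, and with TMM factors 1 was higher and 1 lower. By contrast, all 10 genes for scaffolds of other corepressor complexes reached 5 TPM (median 23.9 TPM). Tle4, encoding a Groucho corepressor, had 137 and 174 TPM, Sin3a, the scaffold of another deacetylase complex, had 103 and 81.2 TPM, and Nrip1, encoding a corepressor of hormone receptors, was lowest at 5.02 and 5.78 TPM. Of these, 3 were higher and 6 lower in replicate 2, and with TMM factors 4 were higher and 6 lower. All 8 coactivator genes reached 5 TPM as well (median 36.3 TPM). Kat2b, encoding the acetyltransferase PCAF, had 160 and 184 TPM, Ncoa3, encoding a receptor coactivator, had 48.9 and 42.0 TPM, and Kat2a, encoding the related acetyltransferase GCN5, had 7.86 and 3.10 TPM, the lowest with the exonic length, while Ncoa2 was lowest with the deposited length. Of the coactivators 2 were higher and 3 lower in replicate 2 with the totals, and 5 were higher and 1 lower with TMM factors.

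The list of Xist and of genes for proteins that bind its RNA had the highest median of the 8 lists, 397 TPM. Hnrnpk, whose product links Xist to Polycomb complexes, had 462 and 557 TPM. Hnrnpu, whose product SAF-A anchors Xist to chromatin, had 480 and 529 TPM, and Ciz1, encoding another anchor, was lowest at 3.39 and 3.12 TPM. Xist itself, the RNA that SPEN binds, had 719 counts in replicate 1 and 452 in replicate 2, or 5.33 and 4.17 TPM. Of this list 4 of 6 were higher and 1 lower in replicate 2, and with TMM factors 4 were higher and none lower. Spen, at 8.32 and 5.38 TPM, was thus well below the RNA partners Hnrnpk and Hnrnpu in each library, by a difference larger than the spread of either. Against Ciz1, at 3.39 and 3.12 TPM, Spen was the higher gene in each library.

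**Figure D4:**
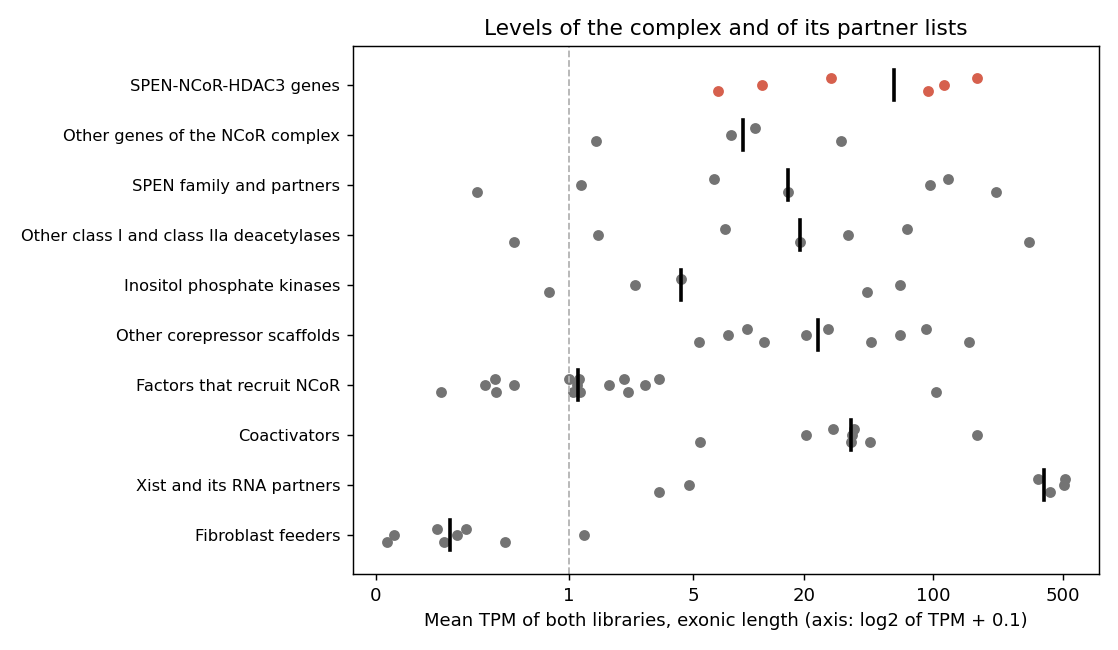
Mean TPM of both libraries (exonic length, log2 axis after adding 0.1) of the 6 corepressor genes (red) and of each list of related genes (grey), with a line at the median of each list and a dashed line at 1 TPM. Medians are 61.2 TPM for the corepressor genes, and for the recruiting factors and the Xist list 1.13 and 397 TPM.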

How the data were processed

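Poly(A) RNA was sequenced from 2 replicates, and groups and replicate numbers were taken from the labels. Per the file headers, the authors made the deposited counts with featureCounts 1.5.2, as fragments in reverse-stranded mode over transcript spans, summarised by gene and not normalised. The submitters' processing notes name Bowtie2 2.3.2, STAR 2.4.2a and mm10, and how the mRNA reads were aligned is not given in the sources used here. Sample descriptions hold a letter b that is missing from the names of the count columns, which were matched by the rest of the name. Column use was complete, with 0 columns of per-sample values left out.

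TPM was computed from counts and merged exons of the basic GENCODE M21 set (GRCm38), which matched 21258 symbols and, through older symbols, 878 more (98.1% of the genes), and both libraries were averaged. GC content came from the longest transcript. Intervals are exact and at 95%, and a count of 0 allows up to 3 counts. Both cover counting error only, since the labels name no molecular identifiers and some fragments may be PCR copies. Differences between the libraries were tested by a two-sided exact binomial test (scipy 1.17.1) with p-values adjusted by Benjamini-Hochberg (threshold 0.05) across all genes that had 10 or more counts in total, and log2 ratios were taken after adding 0.5 counts. Trends with GC content and length were polynomials of degree 3 on autosomal genes. The exact test was tried on simulated counts with counting error and known changes only, without a GC trend or further spread between libraries. The quasi-likelihood test of edgeR needs 2 groups and was not used. TMM factors came from edgeR 4.0.16, and size factors from DESeq2 1.42.0, in R 4.3.3.

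The genes and lists were chosen with earlier results of these data known. Named in each list were the 2 genes with the highest mean TPM, the gene with the lowest, and genes at 0. A few genes of these lists are not reported here and were left out of the list counts. Relatives in the family shares, Xist, marker genes and a few receptor genes named beyond that rule were chosen after their values were seen. The comprehensive exons, the exonic bases inside the counted span and the trend with length were alternatives added after seeing the data.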

Additional observations from a re-analysis of the deposited data

How the results depend on the processing

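No paired analysis was possible because only 1 group exists. Across 19 results, 125 alternatives were computed. Of these, 104 were counted as unchanged, 14 as moved, 2 lost the call with the direction kept and 5 turned the direction. Levels and ratios between genes counted as unchanged when they moved by less than their spread, and counts when they moved by at most 1.5 times. Each log2 ratio between libraries among the 104 kept its call and direction, though Gps2 went from -1.38 to -0.51 with GC and length. Filters on low counts left these log2 ratios as they were by construction, so the 104 are no measure of robustness. The median level of the 6 genes, 61.2 TPM, was 25.5 with the deposited length, 70.7 with comprehensive exons and 55.5 with the exonic bases inside the counted span. Of the 6 genes, 3 kept their place in the order with the deposited length, and 4 with comprehensive exons and inside the counted span. The log2 ratio of Tbl1xr1 to Tbl1x, -0.29, turned to 0.50 with the deposited length and went to -1.47 inside the counted span. These alternatives differ from the values reported only in the length of each gene. The log2 ratio between libraries turned to 0.0518 for Spen with the GC trend, to 0.0105 (TMM factors) and 0.0662 (DESeq2 size factors) for Tbl1x, and to -0.0538 for Tbl1xr1 with GC and length. None of these 4 values passed the test any more, nor did Spen with GC and length and Tbl1xr1 with GC. Of the 6 genes, 5 were called with TMM or size factors and 4 with either trend. At a minimum of 5 TPM, 38 list genes were counted in place of 54. The cause was not tested. Without one or the other replicate, the median level was 58.9 to 63.5 TPM, 6 of 6 genes kept their place, the log2 ratio of Tbl1xr1 to Tbl1x was -0.50 to -0.08, that of Ncor1 to Hdac3 1.97 to 3.60, and 50 to 56 list genes reached 1 TPM. Leaving out 1 of 2 replicates moves a mean by less than 1 SD by construction. Each level rests on 2 libraries, and Gps2 on 58 counts in replicate 2.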

Other observations

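Start regions of 300 bases were found in the RefSeq promoter table (GRCm38.p6) for Spen, Ncor1, Tbl1x, Tbl1xr1 and Gps2. Most were rich in GC and in CpG dinucleotides. That of Spen had a GC content of 81.7% and 54 CpGs, Tbl1x 75.3% and 43, Tbl1xr1 76.3% and 25, and Gps2 56.7% and 24, where the median of all 32851 start regions was 52.7% and 7. Ncor1 has a pair of starts in that table. The one at its annotated 5′ end had 72.3% GC and 36 CpGs, and the one inside the gene 38.3% and 2. These are descriptions of the reference sequence, and the counts per gene do not separate starts.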
